A study of Mus musculus with 14 samples.

Results

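Myf6 lies in a stretch of mouse chromosome 10 with 7 other protein-coding genes, which in order along the chromosome are Mettl25, Ccdc59, Ppfia2, Acss3, Lin7a, Myf5, Myf6 and Ptprq. These 8 genes were taken by name and position, with earlier results of these data known, and all 8 are among the 49585 genes of each expression table. RNA-seq was performed on hind limb skeletal muscle of wild-type (WT) mice and of mice labelled as Myf6 knockout (KO), with or without injury, and each of the 4 groups held 3 libraries. The labels do not give the knockout allele, the strain, the age, the kind of injury or the time after it. Each library carries a number with the letter L (uninjured) or R (injured), and libraries of a genotype with the same number are read here as opposite limbs of one animal. No number is shared between the genotypes, so a difference of genotype cannot be told apart from one of litter or batch. A peak list from ChIP-seq, which finds where a protein sits on DNA, was made with a Flag antibody in primary myotubes grown from adult satellite cells, with 1 library and 1 control.

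Myf6, also called MRF4, and Myf5 are 2 of the myogenic regulatory factors, basic helix-loop-helix proteins that bind the E-box motif CANNTG as partners of E proteins and switch on muscle genes. Myf5 acts early, in embryonic muscle progenitors and satellite cells, the stem cells of adult muscle, whereas Myf6 is the member of the family that remains most abundant in adult muscle fibres. The genes form a tandem pair transcribed in the same direction. Regulatory elements that serve both are known to be spread over a long stretch on the Ptprq side of Myf6, in and around Ptprq. For that reason knockouts of one of the pair have long been examined for changes in the other. The remaining genes have other roles. Ptprq encodes a receptor-type phosphatase of inner ear hair bundles, and Lin7a and Ppfia2 encode scaffold proteins of synapses and cell junctions. Acss3 encodes a mitochondrial short-chain acyl-CoA synthetase, Ccdc59 a nuclear cofactor of thyroid transcription factor 1, and Mettl25 a protein of the methyltransferase-like family.

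In the RefSeq annotation of assembly GRCm38.p6, Myf6 occupies chr10:107492848-107494723 and Myf5 chr10:107482908-107486927, with 5.92 kb between them. Ptprq spans chr10:107514363-107720098, and its nearer end lies 19.6 kb from Myf6, towards higher coordinates. Myf5 is on the minus strand and Myf6 is transcribed the same way, so this is the side of the Myf6 start. On the other side Lin7a (chr10:107271549-107425146) ends 57.8 kb from Myf5. Acss3 (chr10:106933514-107123761) and Ppfia2 (chr10:106469500-106933468) follow, and Ccdc59 (chr10:105841479-105847510) and Mettl25 (chr10:105763185-105841380) lie farthest away. The submitters' processing notes name the builds mm10 and GRCm38.p5, which share the chromosome coordinates of GRCm38.p6. When the peak summits were set against the annotated promoter windows, 2.02% of the summits fell in a window, against 0.512% to 0.597% when the summits were moved by 5000 or 50000 bases either way.

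Promoter sequences from RefSeq (GRCm38.p6) were at hand for 5 of the 8 genes, namely Myf5, Lin7a, Ppfia2, Ccdc59 and Mettl25. The table takes each start from an annotated transcript, and those of Myf5, Lin7a and Ppfia2 lie inside the outer gene ends given above. Over the 250 bases before each start, 4 of 6 windows (Lin7a has 2 starts) held at least 1 E-box, and 66.2% of all 32851 windows of that length did. The motif searched was CANNTG, which reads the same on both strands. The 2 sequences shown first are the window of Myf5, the other myogenic factor of the pair, which held no such motif, and the first window of Lin7a, the next gene along, which held 2 (capitals). The third is the whole gap between Ccdc59 and Mettl25, whose annotated starts face away from each other across 98 bases. There the capitals mark CG dinucleotides, of which it holds 12, with a GC content of 66.3% and no E-box.
Myf5, chr10:107486135-107486384, minus strand: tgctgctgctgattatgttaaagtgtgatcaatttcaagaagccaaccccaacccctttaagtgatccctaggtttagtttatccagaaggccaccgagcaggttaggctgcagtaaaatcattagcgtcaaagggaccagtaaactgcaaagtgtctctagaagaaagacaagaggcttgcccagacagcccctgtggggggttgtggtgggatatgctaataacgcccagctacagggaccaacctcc
Lin7a, chr10:107271581-107271830, plus strand: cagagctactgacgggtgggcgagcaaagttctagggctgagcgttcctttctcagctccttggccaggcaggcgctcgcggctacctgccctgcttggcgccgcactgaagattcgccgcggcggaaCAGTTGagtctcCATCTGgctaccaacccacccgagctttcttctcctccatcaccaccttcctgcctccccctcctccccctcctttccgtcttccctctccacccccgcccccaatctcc
Ccdc59 and Mettl25, chr10:105841381-105841478, plus strand, read towards Ccdc59: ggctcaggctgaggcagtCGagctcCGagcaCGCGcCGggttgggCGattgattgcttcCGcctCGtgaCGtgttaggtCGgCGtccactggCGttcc

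Values are given in RPM, the reads of a gene scaled by the total over all genes of its library, and are not corrected for gene length, so levels are compared between libraries and not between genes. Whole reads could be recovered, and the libraries held 1880087 (uninjured WT replicate 2) to 49392471 reads, so that 3 reads, taken as the floor of detection, equal 1.60 RPM in the smallest and 0.0607 RPM in the largest. Uninjured KO replicate 2 stood apart: of 9494 genes with at least 2 RPM in every other library, 24 had no read in it, against 8 in uninjured WT replicate 2 and none in the other 10 libraries. Muscle fibre RNA was abundant throughout, with the 8 fibre markers (Ckm, Acta1 and others) summing to between 112200 and 174900 RPM in each library. Each genotype test was limma on log2(RPM + 1), fitted on every gene that reached 1 RPM in 3 or more of its 6 libraries, with Benjamini-Hochberg adjustment over those genes and a threshold of 0.05. The p-values measure the spread between these libraries.

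Myf6 was lower in KO muscle in both states, and it was the only one of the 8 genes called in either genotype comparison. In uninjured WT muscle Myf6 stood at 46.2, 25.0 and 111 RPM in replicates 1 to 3, and in uninjured KO muscle at 1.86, 3.46 and 2.27 RPM. In injured muscle the WT libraries held 47.9, 121 and 72.5 RPM and the KO libraries 3.32, 2.88 and 3.02 RPM. Every WT library therefore lay above every KO library, the lowest uninjured WT value 7.22-fold above the highest uninjured KO value and the lowest injured WT value 14.4-fold above the highest injured KO value.

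The change of Myf6 on the log2(RPM + 1) scale was -3.90 in uninjured muscle (SE 0.51, 95% interval -5.05 to -2.74, limma adjusted p = 0.0215) and -4.22 in injured muscle (SE 0.33, 95% interval -4.99 to -3.45, limma adjusted p = 0.00697). In RPM the mean of the KO libraries was 4.16% of the WT mean without injury (2.53 ± 0.83 against 60.9 ± 45.0 RPM, SD, n = 3) and 3.82% with injury (3.07 ± 0.23 against 80.4 ± 37.0 RPM, SD, n = 3). An exact permutation test of 3 against 3 libraries gave p = 0.1 in each state, the smallest it can give. Only 1 of the 12460 genes tested fell by more than Myf6 on the log2 scale in uninjured muscle, and none of 12625 in injured muscle. In the authors' deposited table the log2 fold of WT over KO was 4.26 without injury (q = 1.92e-13) and 4.71 with injury (q = 4.56e-27).

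Leaving out 1 library ended the call in several cases. Without uninjured WT replicate 1 or 3, or without uninjured KO replicate 1, the log2 change was -3.96, -3.34 and -3.76 and the limma adjusted p 0.241, 0.0560 and 0.257. In injured muscle the adjusted p was 0.0577 to 0.0867 when any library other than KO replicate 2 was left out, with a log2 change of -4.54 to -3.88. Myf6 was lower in KO muscle in each of these fits.

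Myf6 reads were still present in every KO library. The uninjured KO libraries held 49, 44 and 97 Myf6 reads and the injured ones 124, 52 and 149, all well above the floor of 3 reads. The KO values were close together, between 1.86 and 3.46 RPM over all 6 libraries, while the WT values ran from 25.0 to 121 RPM. Which exons the KO reads cover cannot be read from totals per gene. The 8 fibre markers summed to 113700 to 124900 RPM in uninjured WT and 162900 to 174900 RPM in uninjured KO libraries. With injury the sums were 117700 to 148500 against 112200 to 157400 RPM. None of the 8 was called. At an unadjusted limma p under 0.05 there were 2 without and 0 with injury, beside 14.2% and 10.3% of all genes tested. RPM are shares of a library, and mitochondrial reads took 13.8% to 22.3% in uninjured WT and 3.63% to 15.3% in uninjured KO libraries. The part of fibre content in the Myf6 values was not tested. In bulk tissue fewer cells of a type and less RNA per cell cannot be told apart.

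Sums of macrophage and adipocyte markers also differed in range between the genotypes, without any single gene of these lists called. The 5 macrophage markers summed to 80.3 to 152 RPM in uninjured WT against 46.1 to 77.3 RPM in KO libraries, and to 99.8 to 138 against 85.7 to 87.0 RPM with injury. The 5 adipocyte markers summed to 338 to 1012 RPM in injured WT against 1094 to 2223 RPM in injured KO libraries, and to 879 to 1593 against 1366 to 2287 RPM, which overlap, without injury. Most of the adipocyte sum was Fabp4, and in uninjured muscle the other 4 markers (Adipoq, Plin1, Cidec and Lep) had log2 differences of 1.38 to 2.21 with an unadjusted limma p under 0.05 each. The median of the 5 was 1.60 beside -0.18 for all genes without injury, and 1.87 beside 0.01 with injury. With injury 3 of the 5 had such a p. Over all genes tested 14.2% and 10.3% had such a p, and 21.7% and 16.9% did not overlap. Of the 5 macrophage markers 3 and 2 had such a p without and with injury, with medians of -0.998 and -0.36. Of 5 markers of fibro-adipogenic progenitors 3 and 1 did, with medians of -0.735 and -0.43, and their sums overlapped. Of the 5 endothelial markers 0 and 1 did, and of the 5 nerve and Schwann cell markers 1 and 0. The part of these cell types in the values of the 8 genes was not tested.

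**Figure D1:**
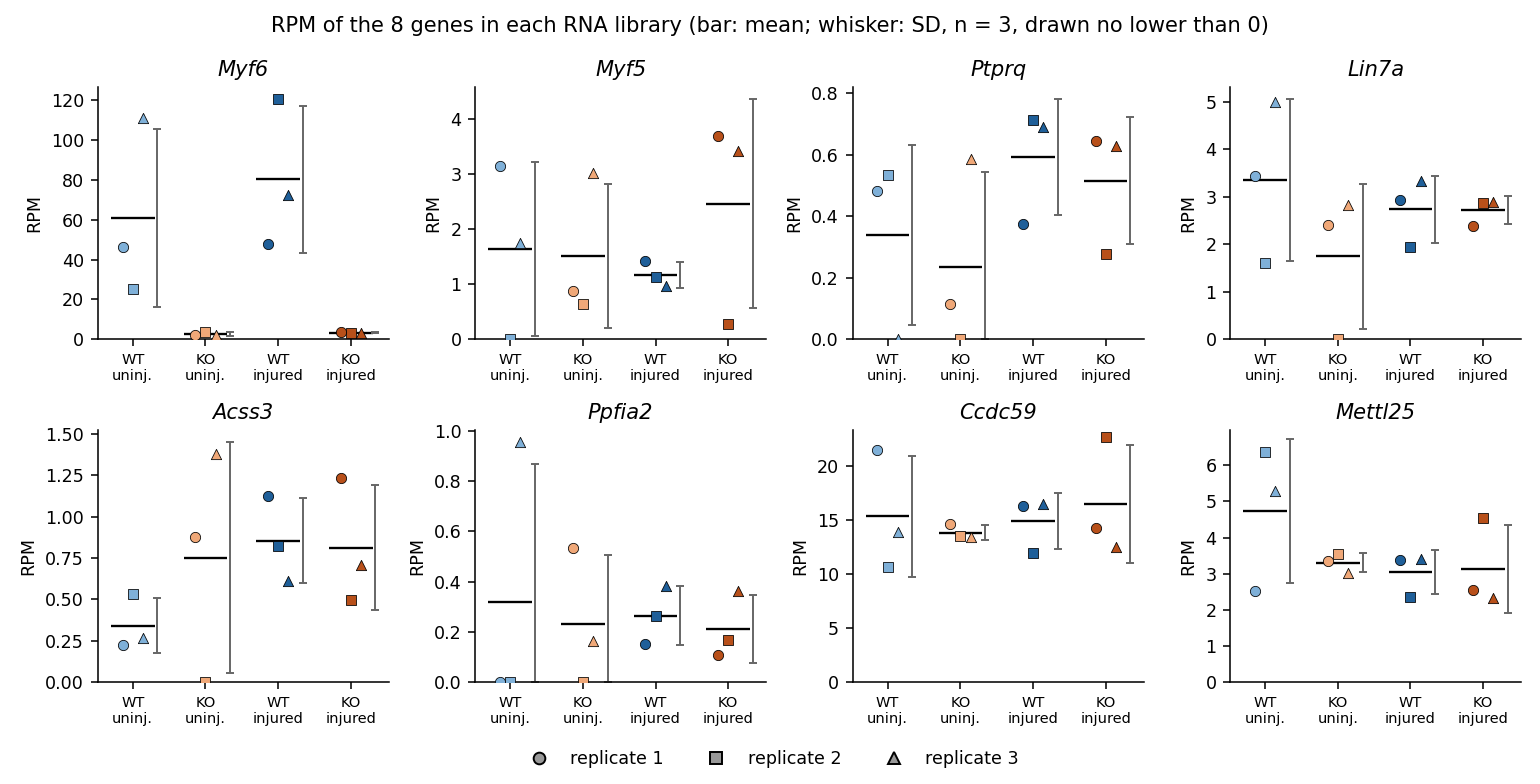
RPM of each of the 8 genes (vertical axis, linear, its own scale in each panel) in the 4 groups of muscle libraries; points are libraries, shaped by replicate number, bars are means and whiskers 1 SD of 3 libraries. Myf6 is the only panel in which all KO points, at 1.86 to 3.46 RPM, lie below all WT points, at 25.0 to 121 RPM.

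Among the 5 members that passed the filter on low values in each genotype comparison, 1 was called lower (Myf6), none higher, and 4 were not called. Over all genes tested, 0.281% were called in uninjured muscle (0.152% lower) and 0.269% in injured muscle (0.095% lower). Myf6 was also the only member whose WT and KO libraries did not overlap, against 21.7% of all tested genes in uninjured muscle (15.5% lower in KO) and 16.9% in injured muscle (8.63% lower). Ptprq, Acss3 and Ppfia2 did not pass the filter in either comparison. Leaving Myf6 aside, the log2 changes of the tested members ran from -0.80 to 0.04 in uninjured muscle and from 0.0039 to 0.46 in injured muscle, with a lowest limma adjusted p of 0.573 and 0.790. The median change of all genes tested was -0.18 and 0.01. In the authors' deposited table each of the 7 other members had a q-value of 0.986 without injury and 0.994 with injury, where 1.43% and 0.893% of all genes had one under 0.05.

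Myf5, the partner of Myf6 in the tandem, was detected at a low level and did not pass the test in either state. Its uninjured WT libraries held 3.15, 0 and 1.75 RPM and the uninjured KO libraries 0.875, 0.630 and 3.02 RPM. The 0 came from the smallest library, where no read among 1880087 allows up to 1.60 RPM. The groups overlapped throughout, with a log2 change of 0.04 (SE 0.59, 95% interval -1.30 to 1.37, limma adjusted p = 0.988).

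In injured muscle the WT libraries held 1.43, 1.12 and 0.957 RPM of Myf5, and the KO libraries 3.69, 0.277 and 3.42 RPM. KO replicates 1 and 3, with 138 and 169 reads, lay above every WT library, and KO replicate 2, with 5 reads, lay below every one. The log2 change was 0.46 (SE 0.50, 95% interval -0.72 to 1.65, limma adjusted p = 0.790), and the change of Myf5 did not differ detectably between the states (interaction 0.43, SE 0.82, limma adjusted p = 0.9999). Single KO libraries decided this value. Without KO replicate 2 the log2 change was 1.08 and the limma adjusted p 0.0176, in a fit that called 2343 of 12312 genes (19%, with 9.49% higher), against 34 with it. Without KO replicate 1 or 3 the log2 change of Myf5 was 0.14 and 0.18, and leaving out any injured library but KO replicate 2 gave 0 calls over all genes. KO replicate 2 had the highest share of mitochondrial reads of the 12, 23.2%, against 4.95% and 4.30% in injured KO replicates 1 and 3; its part in the result was not tested.

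Myf5 is also one of 6 satellite cell markers, the others being Pax7, Calcr, Cdh15, Chodl and Heyl. Their sum was 39.9 to 50.5 RPM in uninjured WT, 37.0 to 54.3 in uninjured KO, 47.4 to 51.1 in injured WT and 43.8 to 55.7 RPM in injured KO libraries, so the groups overlapped. None of the 5 tested in each state was called, and 2 uninjured and 0 injured ones had an unadjusted p under 0.05 (14.2% and 10.3% over all genes). The sum held differences in both directions. In uninjured muscle Chodl stood at 12.3 to 18.1 RPM in WT against 2.44 to 6.10 RPM in KO libraries (log2 difference -1.74, limma adjusted p = 0.0970), and Heyl at 4.26 to 6.44 against 9.68 to 10.9 RPM (0.83, limma adjusted p = 0.292).

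Of the other genes of the myogenic programme, the list held 19: Myod1 and Myog, the remaining factors of the family, the E proteins and Id proteins that act as their partners and antagonists, and Mef2c, Pax7 and other factors of muscle. Of these 18 were tested in each state and limma called none. At an unadjusted p under 0.05 limma gave 1 of the 18 in uninjured muscle and none in injured muscle, where 14.2% and 10.3% of all genes tested had such a p. The 1 was Tcf4, an E protein, whose log2 difference was -0.80 with an SE of 0.28 (limma adjusted p = 0.248). The median change of the list was -0.45 beside -0.18 for all genes in uninjured muscle, and -0.07 beside 0.01 in injured muscle. Myod1 had a log2 change of 0.43 (adjusted p = 0.710) and Myog of 0.35 (adjusted p = 0.751) in the uninjured limma fit. In the injured fit the change of Myod1 was 0.28 (adjusted p = 0.803) and that of Myog was -0.69 (adjusted p = 0.587), and the interaction was not called for either (limma adjusted p = 0.9999).

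**Figure D2:**
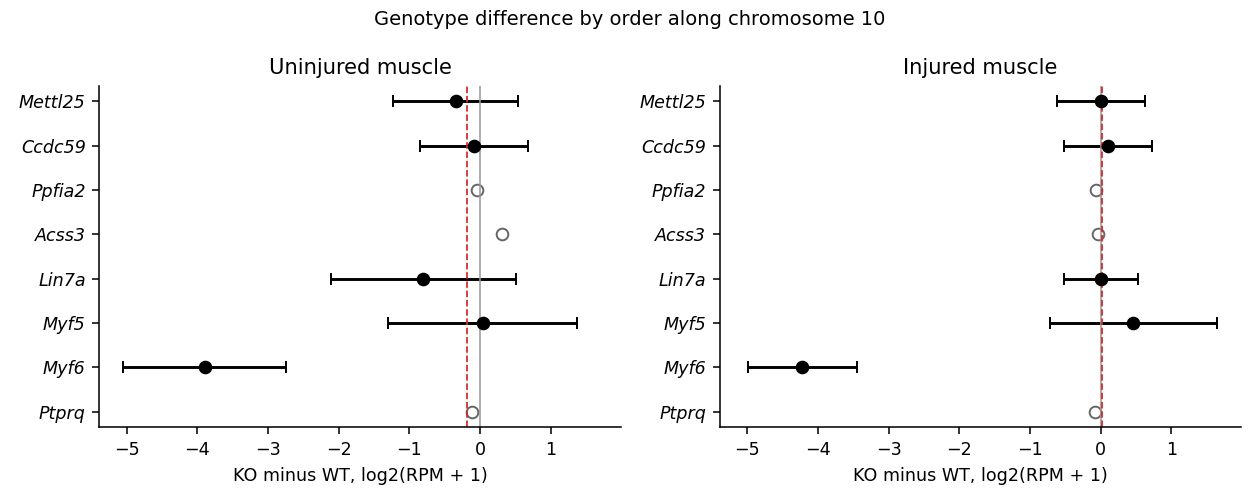
Difference of KO and WT means on the log2(RPM + 1) scale (horizontal axis) for the 8 genes in their order along the chromosome; filled points are genes tested with limma, with 95% intervals, open points were too low to be tested, and the dashed line is the median of all genes tested. Myf6, at -3.90 and -4.22, is the only gene whose interval excludes 0 in either state.

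Ptprq was low in muscle and did not reach 1 RPM in any library. Its highest value was 0.711 RPM, its reads numbered 146 over all 12 libraries, and 2 libraries held none. Uninjured WT libraries had 0.483, 0.532 and 0 RPM and uninjured KO libraries 0.114, 0 and 0.584 RPM. With injury the WT values were 0.375, 0.711 and 0.689 RPM and the KO values 0.642, 0.277 and 0.628 RPM. The groups overlapped in both states. Of the hair cell markers set beside it, Pou4f3 had no read in any library and Atoh1 and Otof stayed at or below 0.0468 and 0.296 RPM. Myo7a, a myosin that other tissues also use, was the exception, at 6.09 to 9.04 RPM in uninjured WT and 0 to 3.12 RPM in uninjured KO libraries, which did not overlap (log2 difference -1.72, limma adjusted p = 0.214). The 0 was in uninjured KO replicate 2, the library that lacked reads of 24 otherwise measured genes. Of all genes tested in uninjured muscle, 21.7% did not overlap. With injury Myo7a ran from 4.68 to 7.58 RPM in WT and from 2.09 to 8.80 RPM in KO libraries.

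Lin7a did not pass the test, and 1 library set the size of its uninjured difference. Without injury the WT libraries held 3.44, 1.60 and 5.01 RPM and the KO libraries 2.40, 0 and 2.83 RPM. The 0 was in KO replicate 2, the library that lacked reads of 24 otherwise measured genes; at the lowest level of Lin7a in any other library, 1.60 RPM, its 12704445 reads would have held 20.3 reads of the gene. The log2 change was -0.80 (SE 0.58, 95% interval -2.11 to 0.50, limma adjusted p = 0.573), and -0.19 without that library. In injured muscle the values were 2.93, 1.95 and 3.33 RPM in WT and 2.38, 2.88 and 2.90 RPM in KO libraries. They differed by 0.01 on the log2 scale (SE 0.22, 95% interval -0.51 to 0.53, limma adjusted p = 0.995).

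Ppfia2 was the lowest of the 8 in read number, with 94 reads over the 12 libraries and no more than 0.955 RPM in any. Its 3 libraries without a read were uninjured WT replicates 1 and 2 and uninjured KO replicate 2. Acss3 reached 1.38 RPM at most. Its KO and WT libraries overlapped in both states, with uninjured WT at 0.225, 0.532 and 0.264 RPM and uninjured KO at 0.875, 0 and 1.38 RPM. The injured libraries had 1.13, 0.824 and 0.612 RPM in WT and 1.23, 0.498 and 0.709 RPM in KO.

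Ccdc59 and Mettl25, whose starts are separated by the 98 bases printed above, were detected in every library. Ccdc59 stood at 21.5, 10.6 and 13.9 RPM in uninjured WT and at 14.6, 13.5 and 13.4 RPM in uninjured KO libraries. The injured WT libraries held 16.4, 11.9 and 16.5 RPM of it, and the injured KO libraries 14.3, 22.7 and 12.5 RPM. The genotypes overlapped, with log2 changes of -0.09 (SE 0.34, 95% interval -0.85 to 0.68, limma adjusted p = 0.940) and 0.11 (SE 0.26, 95% interval -0.51 to 0.73, limma adjusted p = 0.924).

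Mettl25 stood at 2.51, 6.38 and 5.30 RPM in uninjured WT and at 3.35, 3.54 and 3.02 RPM in uninjured KO libraries. The injured WT libraries held 3.38, 2.36 and 3.41 RPM, and the injured KO libraries 2.54, 4.54 and 2.33 RPM. It did not pass the test in either state, with log2 changes of -0.35 (SE 0.39, 95% interval -1.24 to 0.54, limma adjusted p = 0.737) and 0.0039 (SE 0.26, 95% interval -0.62 to 0.63, limma adjusted p = 0.998).

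Across the 6 injured libraries Ccdc59 and Mettl25 varied together, with KO replicate 2 highest for both and WT replicate 2 and KO replicate 3 lowest for both. On the log2(RPM + 1) scale Pearson's r was 0.98 (exact permutation p = 0.00417) and Spearman's rho 0.94 (exact permutation p = 0.0167), and r was 0.97 after leaving out the 2 libraries farthest from the median of Ccdc59. Across the 6 uninjured libraries the relation had the opposite sign, with r = -0.77 (exact permutation p = 0.0639) and rho = -0.60 (exact permutation p = 0.242). There r was 0.10 without the 2 farthest libraries, so the negative value rested on those. Over the family of 56 relations, every pair of the 8 genes in each state, neither held after Benjamini-Hochberg adjustment (0.233 for r and 0.817 for rho in injured muscle, 0.793 and 0.933 in uninjured muscle). The highest uninjured Mettl25 value came from 12 reads in the smallest library. In injured muscle the 3 libraries with the highest values of both genes, KO replicate 2, WT replicate 3 and WT replicate 1, also had the highest shares of mitochondrial reads, 23.2%, 14.8% and 12.5%, against 4.30% to 8.35% in the other 3. The uninjured libraries did not show this order. There WT replicate 2, with a share of 22.3%, had the lowest Ccdc59 and the highest Mettl25 value. WT replicate 1, with 18.1%, had the highest Ccdc59 and the lowest Mettl25 value. The part of that share in the relation was not tested.

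**Figure D3:**
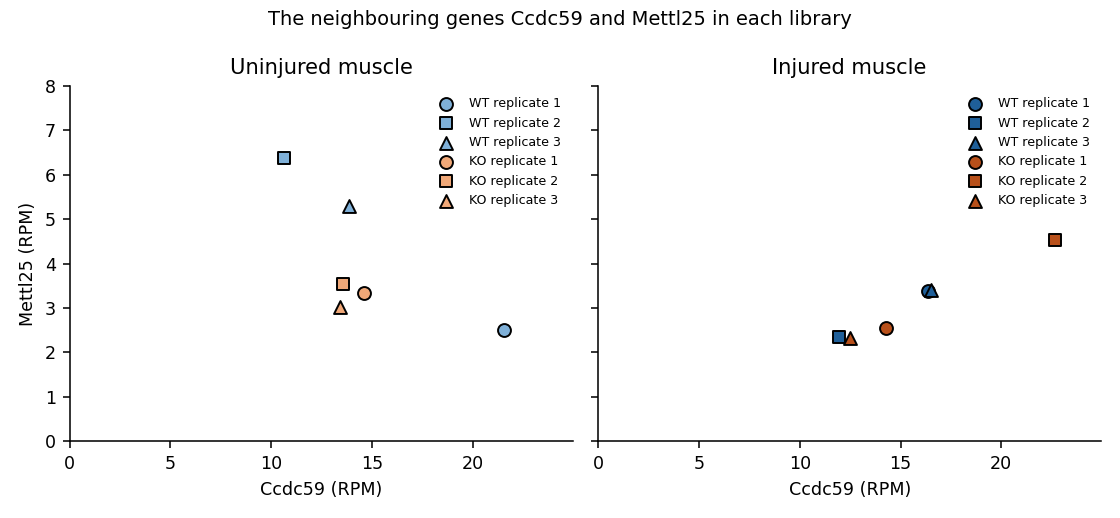
Mettl25 (vertical axis, RPM) against Ccdc59 (horizontal axis, RPM) in each uninjured (left) and injured (right) library, coloured by genotype and shaped by replicate. The 6 injured points lie along a rising line and the 6 uninjured points do not.

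No member was called for a change with injury. With all 12 libraries in 1 limma fit, 6 members were tested (all but Ptprq and Ppfia2) and 0 were called for injury in WT, injury in KO or the interaction of genotype and injury, nor was any at an unadjusted p under 0.05. Over all 13337 genes limma called 0% in each, with 1.29%, 3.51% and 1.56% at an unadjusted p under 0.05, and edgeR on the recovered reads also called none. The limma fit did not use the pairing of limbs from the same animal, and with a block by animal it also called 0 genes in each. For Myf6 the injured minus uninjured change was 0.56 in WT (SE 0.46, 95% interval -0.45 to 1.56, limma adjusted p = 1.0) and 0.23 in KO muscle (SE 0.46, 95% interval -0.77 to 1.23, limma adjusted p = 0.859). The genotype change of Myf6 differed between states by -0.33 (SE 0.65, 95% interval -1.74 to 1.09, limma adjusted p = 0.9999). The WT and KO injury contrasts rest on the same fit and the interaction is their difference, so they are not separate evidence.

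Matched limbs showed no common direction for Myf6. WT animals went from 46.2 to 47.9, from 25.0 to 121 and from 111 to 72.5 RPM between the uninjured and the injured limb, which is a log2 difference of 0.05, 2.23 and -0.61. KO animals went from 1.86 to 3.32, from 3.46 to 2.88 and from 2.27 to 3.02 RPM. The order of group means was injured WT, uninjured WT, injured KO and uninjured KO, and neighbours within a genotype overlapped. Acss3 was the only member whose injured and uninjured libraries did not overlap within a genotype. All 3 injured WT values (0.612 to 1.13 RPM) were above all 3 uninjured WT values (0.225 to 0.532 RPM), as were 7.48% of all tested genes, and 10% did not overlap in either direction (6.74% in KO muscle). Its log2 change was 0.47 (SE 0.33, 95% interval -0.25 to 1.18, limma adjusted p = 1.0), and the uninjured WT values came from 1 to 8 reads.

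Ranked by correlation with Myf6, the neighbours that could be ranked stood between 4101 (Lin7a) and 10093 (Acss3) of 13336 other genes. Over the 12 libraries the correlation of log2(RPM + 1) with Myf6 was 0.34 for Lin7a, 0.15 for Mettl25, -0.02 for Ccdc59, -0.10 for Myf5 and -0.21 for Acss3, while Ptprq and Ppfia2 were too low to be ranked. The 5 most alike of 13336 other genes, picked for the highest r, were Gm42047 (r = 0.96), 2610507I01Rik (0.96), Polr2k (0.95), Mir6999 (0.95) and 1190007I07Rik (0.95). Gm42047, 2610507I01Rik and Mir6999 were low, with at most 2.14, 3.86 and 1.45 RPM and a lowest value of 0 RPM each. Polr2k, a small subunit shared by the nuclear RNA polymerases, averaged 49.4 RPM in uninjured WT, 14.0 in uninjured KO, 46.2 in injured WT and 14.5 RPM in injured KO libraries. Its log2 changes of -1.67 and -1.61 did not pass (limma adjusted p = 0.115 and 0.0817). The 12 points fall into 2 sets by genotype, which this ranking reads first. Within the 6 WT libraries r with Myf6 was 0.45 for Lin7a, 0.42 for Myf5, -0.009 for Ccdc59, -0.01 for Acss3 and -0.39 for Mettl25. Within the 6 KO libraries r was 0.09 for Myf5, -0.0016 for Ccdc59, -0.13 for Mettl25, -0.47 for Lin7a and -0.48 for Acss3.

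In injured muscle 1190007I07Rik (log2 change -2.15, limma adjusted p = 0.00697) and 2610507I01Rik (-1.93, limma adjusted p = 0.0394) fell in KO libraries. Both genes were picked for likeness to Myf6 over these same libraries. A lower level in KO libraries thus follows from the choice and is no separate result. Both calls were lost when any library but KO replicate 2 was left out and with the replicate block, where no gene was called. In uninjured muscle their changes of -1.82 and -1.30 did not pass (limma adjusted p = 0.0554 and 0.206). Within the 6 WT libraries alone a different set was most alike: Tomm20 (r = 0.998), Rab10 (0.997), Gabarapl2 (0.997), Zfp768 (0.996) and Akr1a1 (0.996), the highest of 13329 genes over only 6 points. Rab10, a small GTPase of vesicle transport, ranged from 47.9 to 181 RPM over those libraries, and Tomm20, a receptor of mitochondrial protein import, from 28.7 to 72.6 RPM. These values describe likeness in these libraries and nothing more.

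The flanks of the stretch were examined through the 10 nearest protein-coding genes on each side, none of which lies between the members. Of the 20, 18 were in the tables, 5 were tested in uninjured and 6 in injured muscle, and limma called none. At an unadjusted p under 0.05 there were 2 and 1, where 14.2% and 10.3% of all genes tested had such a p. The largest difference in both states was that of Ppp1r12a, a regulatory subunit of myosin phosphatase on the far side of Ptprq. It averaged 20.2 ± 2.9 RPM in uninjured WT and 5.68 ± 2.88 RPM in uninjured KO libraries (SD, n = 3; log2 change -1.75, SE 0.39, limma adjusted p = 0.104). With injury it averaged 26.2 ± 3.2 against 14.9 ± 12.5 RPM (log2 change -1.04, limma adjusted p = 0.530). The genes under an unadjusted p of 0.05 were Ppp1r12a and Zdhhc17 without injury and Zdhhc17 alone with injury. Zdhhc17, a palmitoyltransferase named here after its values were seen, had log2 changes of -1.02 and -0.79 (limma adjusted p = 0.175 and 0.409). The median change of the tested flanking genes was -0.49 beside -0.18 for all genes in uninjured muscle, and 0.14 beside 0.01 in injured muscle.

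The Flag-Myf6 peak list placed 7 of its 12898 peaks within the stretch of the 8 genes and 100 kb on either side. With 1 library there is no replicate, and the fold enrichment over local background is the authors' own value for each peak. No summit lay in or within 5 kb of Myf6 or Myf5. The peak nearest to Myf6, chr10:107506516-107506745, had a fold enrichment of 8.70 and a summit 11.9 kb from Myf6 and 19.7 kb from Myf5, on the side of Ptprq. It lay between Myf6 and Ptprq, within the annotated lncRNA Gm36177.

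Inside Ptprq were 4 peaks, at chr10:107516753-107516889, chr10:107568530-107568688, chr10:107626800-107626950 and chr10:107691901-107692029, with fold enrichments of 5.07, 7.66, 9.34 and 6.77. Their summits were 22.1, 73.8, 132 and 197 kb from Myf6. The third had the highest fold enrichment of the 7, and 29.9% of all peaks in the list had at least that value. Of the remaining peaks, chr10:107054823-107054949 lay in Acss3 (fold enrichment 5.78) and chr10:107794961-107795176 in Otogl, beyond Ptprq (fold enrichment 6.60). The median fold enrichment was 6.77 for the 7 peaks and 7.68 for all peaks of the list. The lowest of the 7, at 5.07, was reached or passed by 87.9% of the list.

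Over the whole stretch with 100 kb on either side the list held 3.245 peaks per Mb, and 3.066 per Mb without that margin. Both lay below the density of chromosome 10, 5.25 per Mb, and of all autosomes, 5.34 per Mb. Within the stretch the peaks were unevenly placed. From the Myf6 end that faces Ptprq to the far end of Ptprq, 0.225 Mb, there were 5 summits, or 22.2 per Mb. From Mettl25 to that same end of Myf6, 1.73 Mb, there was 1, or 0.578 per Mb. The gap of 1397 kb before the peak in Acss3 was the 11th largest of 662 between neighbouring summits on the chromosome, and it covers Ccdc59, Mettl25 and Ppfia2. The promoter windows of Myf5, Lin7a, Ppfia2, Ccdc59 and Mettl25, the sequences printed above among them, held no summit. These densities were looked at because of where the genes lie, and no test was made of them. Ptprq held 4 peaks in cultured myotubes and had few reads in whole muscle. These are different cells, and a relation between peaks and reads was not tested.

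**Figure D4:**
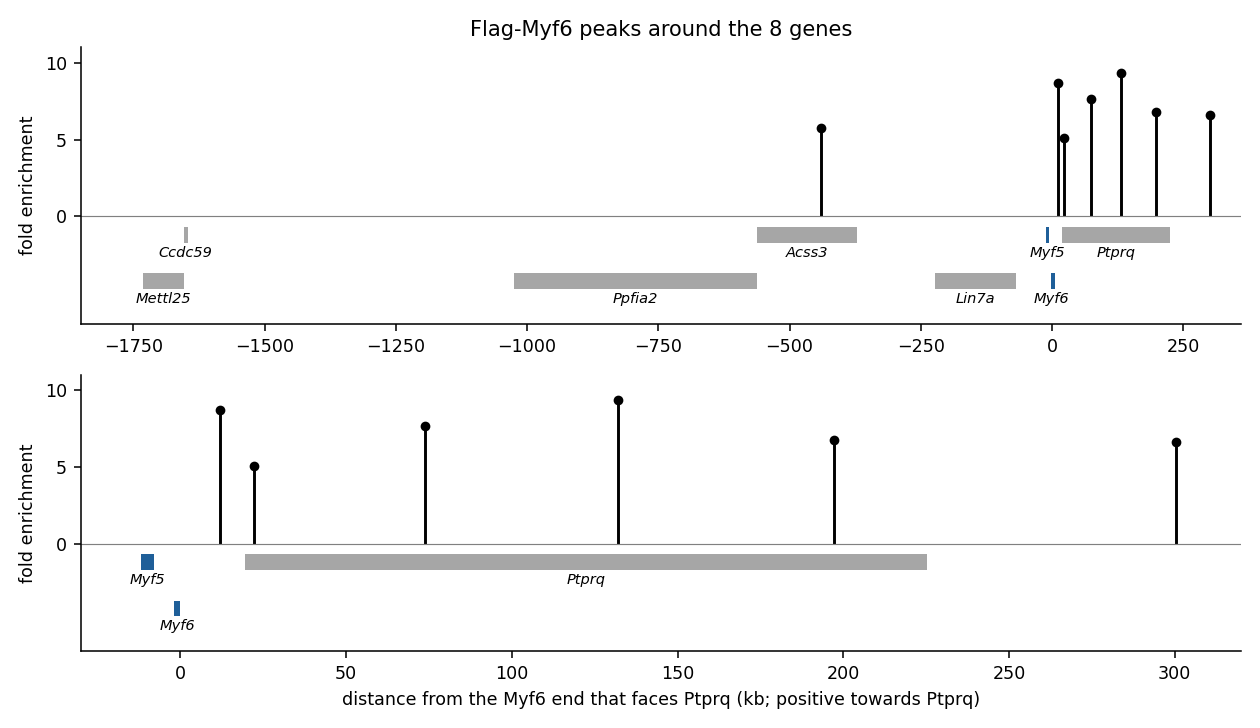
Flag-Myf6 peaks (vertical lines, height is the authors' fold enrichment) by distance in kb from the end of Myf6 that faces Ptprq, with the 8 genes as bars below; the upper panel shows the whole stretch and the lower panel the part around Myf6 and Ptprq. The peak nearest to Myf6 is 11.9 kb away, 4 peaks stand over Ptprq, and 1 stands over Acss3.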

How the data were processed

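The authors deposited 1 table for uninjured and 1 for injured libraries, with RPM per library and, per gene, their log2 fold change (WT over KO), p-value and q-value. The authors' peak list gives signal (pileup) at the summit, fold enrichment and the −log10 of its p-value and of its q-value, as the file headers name them. The submitters' processing notes name Bowtie 1.1.0, MACS2 2.1.0.20140616, HISAT2 2.1.0, SAMtools, featureCounts, DESeq2 and the builds mm10 and GRCm38.p5, without role or order. Strand use and the treatment of shared reads are not given in the sources used here, so overlapping genes such as Ptprq and Gm36177 are uncertain.

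In every library 100% of values tested came out as whole reads within 0.1 read, and the floors cover counting error only. Tests used limma 3.58.1 (R 4.3.3; eBayes with a mean-variance trend, two-sided) on log2(RPM + 1), a scale that understates changes of low genes. KO against WT was fitted on 6 libraries, injury and the interaction on all 12. Alternatives were edgeR 4.0.16 and DESeq2 1.42.0 on recovered reads, TMM and upper quartile scaling, a pseudocount of 0.1, no filter, replicate blocks, each library left out, and the authors' q-values. On recovered reads edgeR called 55 uninjured and 33 injured genes and DESeq2 663 and 427, against 35 and 34 with limma. The fits were also run on simulated counts with the same dispersion for every gene and library. Real libraries were less even (uninjured KO replicate 2 stood apart), so that run gives no error rate for these data.

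Replicate numbers of WT and KO join different animals, and same-numbered libraries did not all deviate together (r of 0.04 to 0.37 uninjured, -0.60 to -0.30 injured), so no block was used there. Within a genotype the number is read as the animal (r of -0.23 to 0.28 in WT and 0.02 to 0.63 in KO). Libraries of different numbers had r of -0.40 to 0.31 in WT and -0.62 to 0.50 in KO, so these values do not settle that reading. Named were the 8 members, the 5 genes most like Myf6 over 12 and over 6 WT libraries, flanking genes that were called or else moved most, factors of the myogenic list at an unadjusted p under 0.05, and all peaks in the stretch. Myod1 and Myog were added as the rest of the family. The members and lists were chosen with earlier results of these data known.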

Additional observations from a re-analysis of the deposited data

How the results depend on the processing

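Myf6 kept its direction in every alternative, with a log2 change of -4.39 to -3.34 in uninjured and -4.73 to -3.88 in injured muscle. Its adjusted p was under 0.05 in 11 of 15 uninjured alternatives (1.92e-13 to 0.257) and in 9 of 15 injured ones (2.62e-28 to 0.110). The number of members called, 1 in each state, became 0 in uninjured muscle without a filter, where 23129 genes were tested. It ranged from 0 to 1 when 1 uninjured library was left out and from 0 to 2 when 1 injured library was left out, the 2 being Myf6 and Myf5 without KO replicate 2. With the replicate block 0 members were called in injured muscle (Myf6 adjusted p = 0.110), and over all genes the block gave 752 calls in uninjured and 0 in injured muscle. The block by animal changed no call for injury. Over all genes the uninjured calls were 35, but 110 with TMM, 122 with upper quartile scaling, 167 with all 12 libraries, 20 with a pseudocount of 0.1 RPM, 1 without a filter and 331 in the authors' table (225 injured). TMM moved the median of all genes in uninjured muscle from -0.18 to -0.01. None of the 7 peaks had a fold enrichment of at least 10, which leaves 0. The cause of these differences was not tested.

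Members that were not called changed sign as follows. For KO against WT without injury, Ccdc59 was 0.10 with TMM, 0.029 with upper quartile scaling, 0.071 with DESeq2, 0.062 with edgeR and 0.076 in the authors' table, and -0.30 to 0.17 with 1 library left out. Myf5 was -0.13 with DESeq2, -0.17 with edgeR and -0.13 in the authors' table, and -0.55 to 0.29 with 1 library left out. With injury, Mettl25 was -0.0033 with a pseudocount of 0.1, -0.0030 with TMM and -0.050 with upper quartile scaling, and Lin7a -0.045 with upper quartile scaling and -0.010 with edgeR. With 1 library left out these ran from -0.23 to 0.14 (Mettl25), -0.15 to 0.13 (Lin7a) and -0.13 to 0.27 (Ccdc59). For injury in WT, Myf5 was 0.57 with a pseudocount of 0.1, and Ccdc59 -0.064 with TMM and -0.13 with edgeR. With 1 library left out Myf5 ran from -0.64 to 0.38, Ccdc59 from -0.21 to 0.26 and Lin7a from -0.49 to 0.12. For injury in KO, TMM gave -0.0019 for Myf6 and -0.084 for Ccdc59, and edgeR -0.029 for Myf6, -0.054 for Acss3 and -0.066 for Ccdc59. With 1 library left out Acss3 ran from -0.24 to 0.25, Ccdc59 from -0.046 to 0.36 and Mettl25 from -0.32 to 0.044. In the interaction, Myf5 was -0.18 with a pseudocount of 0.1 and Ccdc59 -0.019 with TMM. With 1 library left out Myf5 ran from -0.012 to 1.04, Ccdc59 from -0.068 to 0.41 and Myf6 from -0.89 to 0.17.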

Other observations

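Besides the 8 genes, the annotation lists 12 others between the ends of Mettl25 and Ptprq, 9 pseudogenes and 3 lncRNAs. Of these 4 were in the expression tables and 3 of the 4 had no read in any library. The fourth, Rps15a-ps1, reached 0.0553 RPM at most.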
